A study of Oryza sativa with 8 samples.

Results

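Metallothioneins are small cysteine-rich proteins that bind zinc, copper and other metals through the sulfur of their cysteines. In plants they hold metals in a safe form, hand them on to enzymes and other proteins, and can react with reactive oxygen. The rice annotation holds 9 genes whose symbol or synonym is MT followed by a number and an optional letter, with or without Os in front, and none of these genes carries a methyltransferase name. Of these, 7 are on the array with 9 probes (1 each for MT21A, MT1A, MT1B, MT4A and MT4C, and 2 each for MT2B and MT2C), out of 15641 genes on probes with a single gene. MT2A and MT4B are not analysed here. All 9 probes had a value on every array, so none was lost to a filter.

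The tissue was callus from the scutellum, the part of the grass embryo that feeds the seedling, of the japonica rice variety Nipponbare. Callus was kept for 30 days on medium with 10 µM 2,4-D, a synthetic auxin, and then for 3 days with 50 µM abscisic acid (ABA, a hormone of seed maturation and drought) or with 50 µM gibberellin (GA, a hormone of germination and growth), while controls received neither hormone. Each of the 8 arrays of the 22K rice oligonucleotide design carried treated callus in 1 dye and untreated callus in the other. For ABA, treated callus was labelled with Cy3 on arrays 24 and 20 and with Cy5 on arrays 19 and 23. For GA, it was labelled with Cy3 on arrays 4 and 5 and with Cy5 on arrays 7 and 8.

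Values are log2 ratios of treated over untreated callus, so 0 means no difference and 1 a doubling. They are differences and not levels, so the scutellum origin cannot be checked against marker levels, and a probe's ratio says nothing of how abundant its transcript was. In a bulk sample like this, fewer cells of a type and less RNA per cell cannot be told apart. The labels do not say whether arrays held separate cultures or shared an untreated sample, so the tests see the array-to-array spread alone, and this may be technical. Once turned to treated over untreated, arrays of 1 hormone and 1 dye orientation correlated at 0.870 to 0.957, while arrays of opposite orientation reached 0.506 to 0.605 within the ABA set and 0.70 to 0.816 within the GA set. The direction follows the dyes in the labels and is likely rather than certain. It would turn for all GA values if the GA dyes were recorded the other way round, and for all values of both hormones if the ratio were Cy3 over Cy5.

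The clearest responses were opposite between members. Under ABA the seed-type gene MT21A rose and MT1A fell, and under GA MT21A fell while MT1A, MT4A, MT1B and 1 probe of MT2B rose. At an adjusted p under 0.05, 7 of the 9 probes changed under ABA, against 41.8 percent of all 17782 probes tested. Of these 4 rose and 3 fell, where 18.0 and 23.7 percent of all probes did. Under GA 8 of 9 probes changed, against 49.0 percent of all, with 6 higher and 2 lower, where 26.2 and 22.8 percent of all probes were. The 6 include MT2C probe 10554, a call that most alternatives of the processing did not keep. The median size of the change, whatever its sign, was 0.21 for the 9 probes under ABA, against 0.09 over all probes. Under GA it was 0.46, against 0.11 over all probes. The signed median was 0.01 under ABA and 0.22 under GA, beside all-probe medians within 0.01 of 0. Changes of at least 2-fold that also passed the test were found for 3 of the 9 probes under GA (2.04 percent of all) and for 0 of 9 under ABA (1.36 percent of all).

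**Figure D1:**
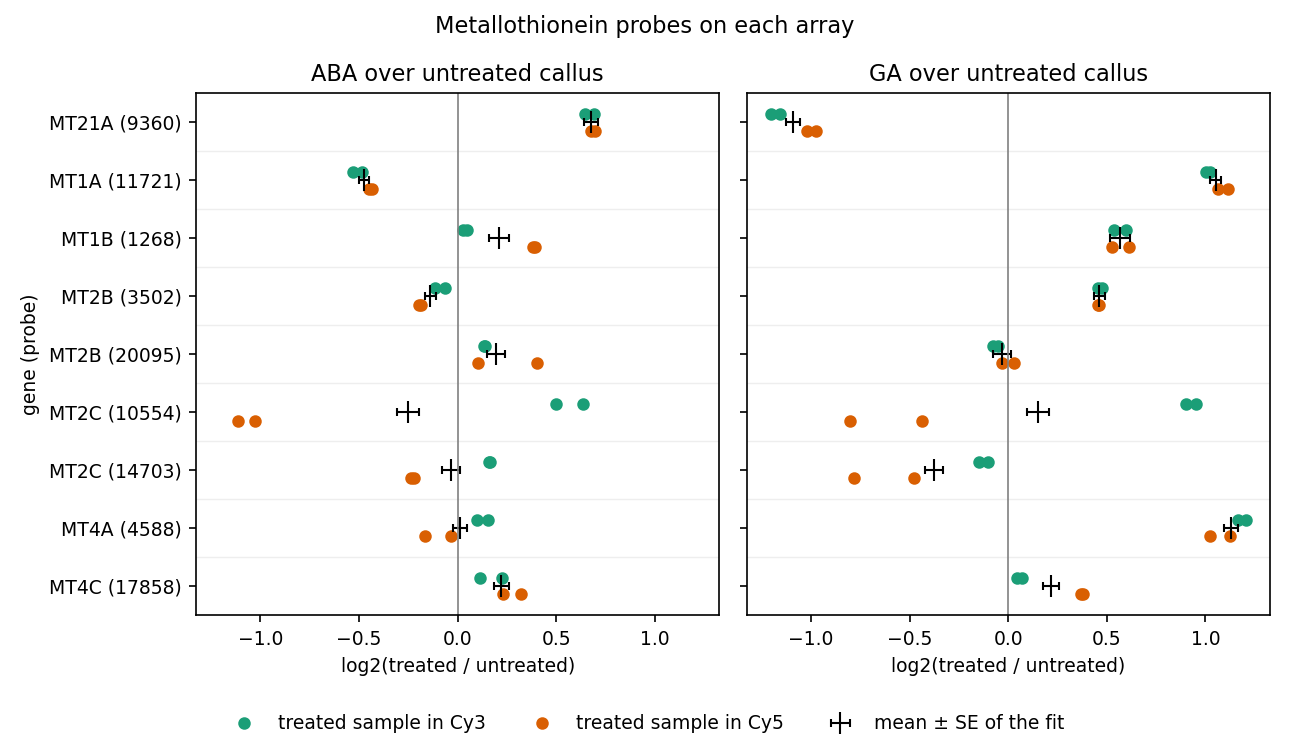
Log2 ratio of treated over untreated callus (x axis) for each metallothionein probe (y axis) under ABA (left) and GA (right). Points are single arrays, coloured by the dye of the treated sample, and black ticks are the fitted mean with its SE. MT21A sits near 0.68 under ABA and -1.09 under GA on arrays of both dyes, while MT2C probe 10554 splits by dye.

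MT21A is also listed as OsMT4 and OsMT-II-1a, names of the seed-type class of plant metallothioneins. The wheat protein of that class, known as Ec, was found in embryos, and its gene responds to ABA. In rice callus under ABA, MT21A (NCBI gene 4349263) was at 0.65 and 0.69 on the arrays with treated callus in Cy3 and at 0.70 and 0.67 on those with it in Cy5. All 4 ABA arrays were thus above 0 and within 0.06 of each other. The mean was 0.68 ± 0.02 (SD, n = 4), a 1.60-fold rise (limma adjusted p = 5.37e-07). The GA arrays gave -1.16 and -1.21 in Cy3 and -1.02 and -0.98 in Cy5. Every GA array lay below every ABA array. The GA mean was -1.09 ± 0.11 (SD, n = 4), which is 0.470 of the untreated value (limma adjusted p = 1.79e-08). The difference ABA minus GA was 1.77, with a 95 percent interval of 1.66 to 1.88 (limma adjusted p = 5.90e-09), and had rank 255 by size among the 17782 probes.

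MT1A, also listed as OsMT1a and rgMT-1, is a metallothionein studied in rice for zinc accumulation and drought tolerance. Its pattern was the reverse. Under ABA, MT1A (NCBI gene 4351213) was at -0.48 and -0.53 with treated callus in Cy3 and at -0.44 and -0.45 in Cy5. It fell on all 4 arrays, with a mean of -0.47 ± 0.04 (SD, n = 4), or 0.720 of the untreated value (limma adjusted p = 1.33e-06). The GA arrays of MT1A lay on the other side of 0, at 1.02 and 1.0 in Cy3 and at 1.12 and 1.06 in Cy5. The GA mean was 1.05 ± 0.05 (SD, n = 4), a 2.07-fold rise (limma adjusted p = 6.75e-09), and again no ABA array overlapped a GA array. ABA minus GA was -1.53 (95 percent interval -1.61 to -1.44, limma adjusted p = 4.15e-09).

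MT4A and MT4C lie close together in the genome, with 1 annotated gene between them, but their probes did not respond alike. MT4A carries the synonyms OsMT1b and OsIDS1, the second after a barley transcript of iron-deficient roots. Under ABA, MT4A (NCBI gene 4352580) was at 0.15 and 0.10 in Cy3 and at -0.03 and -0.16 in Cy5, so the sign followed the dye. The ABA mean was 0.01 ± 0.14 (SD, n = 4; limma adjusted p = 0.788), with a 95 percent interval of -0.07 to 0.10. With GA, MT4A was at 1.21 and 1.17 in Cy3 and at 1.13 and 1.02 in Cy5. This mean of 1.13 ± 0.08 (SD, n = 4), 2.19-fold (limma adjusted p = 2.06e-08), was the largest rise among the 9 probes, although its arrays overlapped those of MT1A. ABA minus GA for MT4A was -1.12 (limma adjusted p = 1.68e-07). MT4C, also listed as OsMT1c, was at 0.11 and 0.23 in Cy3 and at 0.23 and 0.32 in Cy5 under ABA, a mean of 0.22 ± 0.09 (SD, n = 4; limma adjusted p = 0.00189). With GA, MT4C was at 0.07 and 0.05 in Cy3 and at 0.38 and 0.37 in Cy5, a mean of 0.22 ± 0.18 (SD, n = 4; limma adjusted p = 0.00161). MT4C rose slightly under both hormones, under GA mainly with treated callus in Cy5, and its ABA and GA arrays overlapped. The ABA minus GA difference of 0.01 had a 95 percent interval of -0.12 to 0.13 (limma adjusted p = 0.929). Probe sequences are not used here, so cross-hybridisation among MT4A, MT4B and MT4C was not tested.

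MT1B, which is a gene other than the OsMT1b named above, was at 0.02 and 0.05 in Cy3 and at 0.39 and 0.38 in Cy5 under ABA. All 4 values were above 0, but the rise was seen mainly with treated callus in Cy5. The ABA mean of 0.21 ± 0.20 (SD, n = 4; limma adjusted p = 0.00872) did not pass without ABA array 19 (0.17, limma adjusted p = 0.0574). Under GA, MT1B was at 0.60 and 0.53 in Cy3 and at 0.61 and 0.53 in Cy5, so the dye orientations gave the same range. The GA mean of 0.57 ± 0.04 (SD, n = 4), 1.48-fold, passed (limma adjusted p = 1.44e-05). No GA array of MT1B overlapped an ABA array, and ABA minus GA was -0.36 (limma adjusted p = 0.00271). With quantile normalization this difference was -0.21 and did not pass (limma adjusted p = 0.0596).

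The type 2 genes MT2B and MT2C have 2 probes each, and within each gene the probes disagreed. MT2B is also listed as OsMT2c and RICMT. Its probe 3502 was at -0.06 and -0.11 in Cy3 and at -0.18 and -0.20 in Cy5 under ABA, a mean of -0.14 ± 0.06 (SD, n = 4; limma adjusted p = 0.00427). Under GA it was at 0.46, 0.47, 0.46 and 0.45 on arrays 4, 5, 7 and 8, the tightest set of the family, with a mean of 0.46 ± 0.01 (SD, n = 4; limma adjusted p = 1.33e-06). Probe 3502 thus moved as MT1A did, at a smaller size, and its ABA minus GA was -0.60 (limma adjusted p = 2.44e-06). The other MT2B probe, 20095, was at 0.14 and 0.14 in Cy3 and at 0.10 and 0.40 in Cy5 under ABA, a mean of 0.19 ± 0.14 (SD, n = 4; limma adjusted p = 0.00734). Array 23 stood apart there, and without it the mean was 0.13 (limma adjusted p = 0.0251). Under GA probe 20095 was at -0.08 and -0.05 in Cy3 and at -0.03 and 0.03 in Cy5, a mean of -0.03 ± 0.05 that did not pass (SD, n = 4; limma adjusted p = 0.584; 95 percent interval -0.13 to 0.07). Averaged over both probes, MT2B was at 0.03 under ABA and did not pass (limma adjusted p = 0.495), and at 0.21 under GA (limma adjusted p = 3.12e-04).

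MT2C carries the synonym OsMT2b, a protein described in rice as a scavenger of reactive oxygen. Its probe 10554 was at 0.50 and 0.64 under ABA with treated callus in Cy3, against -1.11 and -1.03 with it in Cy5. Under GA it was at 0.95 and 0.90 in Cy3 and at -0.80 and -0.44 in Cy5. On this probe the sample in Cy3, treated or untreated, gave the stronger signal on all 8 arrays. The dye term (positive where Cy5 reads higher) was -0.80 ± 0.04 (SE), rank 7 by size among all 17782 probes (limma adjusted p = 2.68e-05). The hormone means left after the dye term were -0.25 ± 0.06 (SE) under ABA (limma adjusted p = 0.00586) and 0.15 ± 0.06 (SE) under GA (limma adjusted p = 0.0462). Neither passed without the dye term (limma adjusted p = 0.695 and 0.809). Without GA array 8 the GA mean was 0.07 (limma adjusted p = 0.206), and it also did not pass without any of arrays 4, 5, 19, 23 or 24. In all, the GA call held in 6 of the 19 alternatives other than those that changed the direction or asked for 2-fold. The other MT2C probe, 14703, was at 0.16 and 0.16 in Cy3 and at -0.22 and -0.24 in Cy5 under ABA, a mean of -0.03 (limma adjusted p = 0.603). Under GA it was at -0.10 and -0.15 in Cy3 and at -0.78 and -0.48 in Cy5, a mean of -0.38 ± 0.32 (SD, n = 4; limma adjusted p = 1.24e-04). The GA direction of MT2C therefore differed between its probes, and the average of both (-0.11) did not pass (limma adjusted p = 0.0825).

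**Figure D2:**
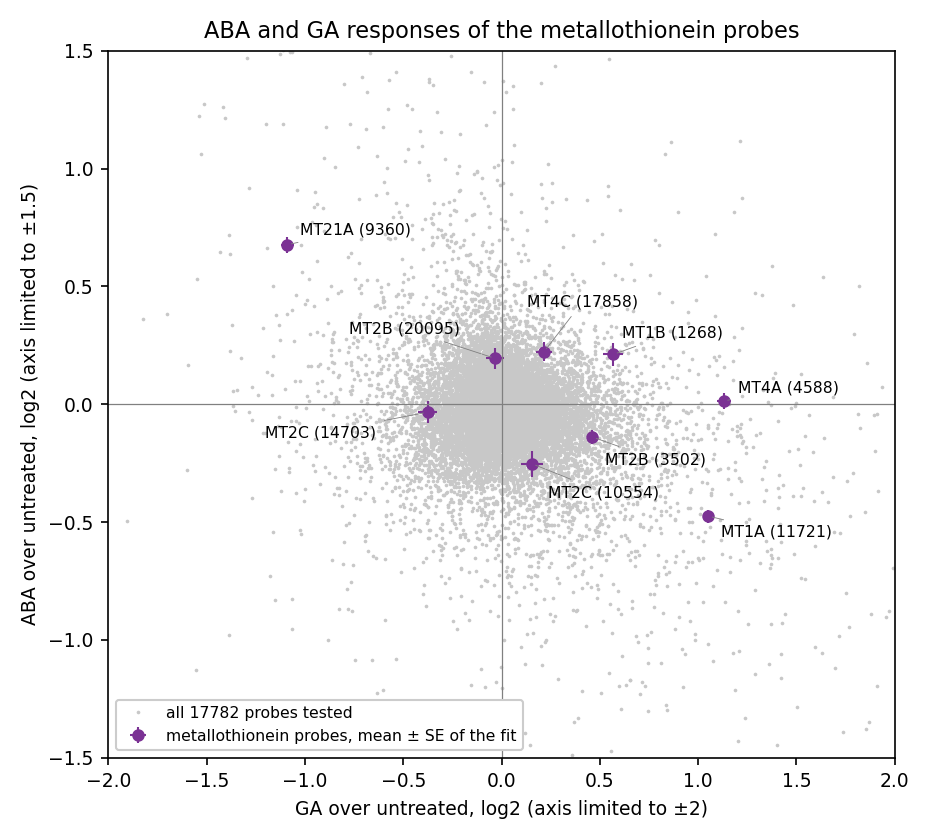
Fitted log2 ratio under ABA (y axis) against that under GA (x axis) for all 17782 probes (grey) and the 9 metallothionein probes (purple, with SE bars), with 121 grey probes outside the plotted range. MT21A lies far to the upper left of the other metallothionein probes (0.68 under ABA, -1.09 under GA), and MT1A is the lowest of them (-0.47 under ABA, 1.05 under GA).

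Set directly against each other, ABA and GA gave different ratios for 8 of the 9 probes, beside 50.0 percent of all probes. For 3 of them ABA was higher (22.7 percent of all) and for 5 lower (27.3 percent of all), and 3 differed by at least 2-fold (4.61 percent of all): MT21A, MT1A and MT4A. With the sign of the GA arrays turned, 7 of 9 probes passed (45.0 percent of all), 5 higher and 2 lower under ABA, and of these 3 only MT4A would reach 2-fold (MT21A -0.41, MT1A 0.58, MT4A 1.14). The ABA and GA arrays did not overlap for 6 of the 9 probes, beside 36.1 percent of all. These 6 are MT21A, MT1A, MT1B, MT4A and both probes of MT2B. The array numbers of the hormones lie in separate ranges, so a batch of arrays and the hormone cannot be told apart.

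Outside the family, the named genes with ratios most like those of MT21A, by the root mean square difference over the 8 arrays among 2461 probes of named genes, were OsZHD1 (difference 0.14), a zinc finger homeodomain factor, OsPEX11-1 (0.19), of the family that divides peroxisomes, and OsCASPL2A1 (0.22). OsZHD1 was at 0.77 ± 0.12 under ABA and at -0.96 ± 0.06 under GA (SD, n = 4 each). Closest to MT4A were OsTPP9 (0.17), a trehalose phosphate phosphatase, the germin-like gene GER3 (0.17) and OsSK1 (0.19). GER3 was at 0.00 ± 0.11 under ABA and at 1.16 ± 0.09 under GA (SD, n = 4 each).

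Metallothioneins work beside small-molecule chelators, metal transporters and enzymes that remove reactive oxygen, and in each of these lists some genes rose and others fell. Among 4 genes of metal chelation, NAS3, which makes the iron and zinc chelator nicotianamine, fell under ABA (-0.89 ± 0.28, limma adjusted p = 6.06e-06) and rose under GA (0.61 ± 0.03, limma adjusted p = 4.40e-05; SD, n = 4 each). NAS1 rose under ABA (0.27 ± 0.11, limma adjusted p = 9.63e-04). The mugineic acid transporter gene tom2 fell under GA (-0.41 ± 0.17, limma adjusted p = 4.46e-04). In all, 1 of the 4 rose and 1 fell under ABA, and 2 rose and 1 fell under GA. Beside these and the following counts stand the shares of all probes: 18.0 percent rose and 23.7 percent fell under ABA, and 26.2 percent rose and 22.8 percent fell under GA.

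Of 48 probes of metal transporters (42 genes), 17 rose, 7 fell and 24 did not pass under ABA, with a median of 0.05. Under GA 12 rose, 10 fell and 26 did not pass, with a median of -0.03, and both GA counts were near the shares of all probes. The zinc transporter gene ZIP4 rose under ABA (1.24 ± 0.18, limma adjusted p = 1.62e-07) and fell under GA (-0.33 ± 0.17, limma adjusted p = 5.92e-04). VIT1, which loads iron and zinc into the vacuole, rose under both (0.88 ± 0.14 under ABA and 0.21 ± 0.12 under GA). MTP7, of the metal tolerance protein family, fell under GA on probes 12162 (-0.53 ± 0.03) and 5998 (-0.86 ± 0.30; SD, n = 4 each), with -0.12 on its other probe.

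Among 14 probes of peroxide and superoxide enzymes (11 genes), 3 rose and 8 fell under ABA, and 4 rose and 3 fell under GA, the GA counts again near the shares of all probes. Both probes of the catalase gene CAT-A rose under both hormones (0.88 and 0.43 under ABA, 1.22 and 0.87 under GA). The medians of the 14 were -0.10 under ABA and 0.01 under GA.

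**Figure D3:**
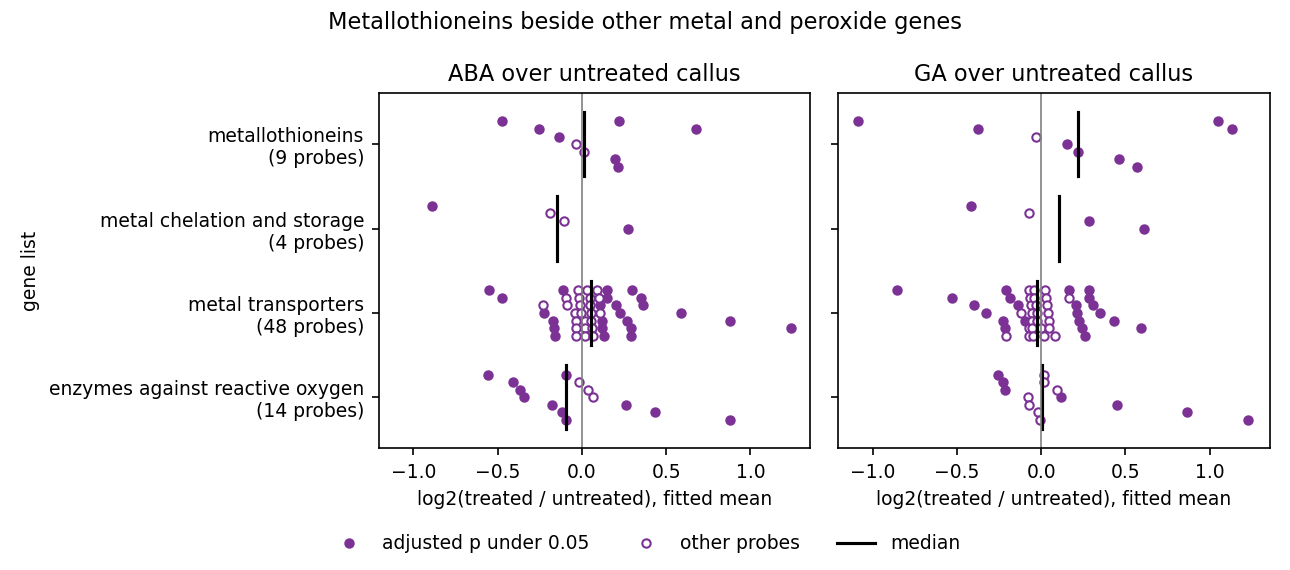
Fitted log2 ratio of treated over untreated callus (x axis) for each probe of the metallothioneins and of 3 other gene lists (y axis) under ABA (left) and GA (right). Filled points passed an adjusted p of 0.05 and black bars are medians; the metallothionein median is 0.01 under ABA and 0.22 under GA.

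Some markers of other tissues that callus could form also moved, and their part in the metallothionein changes was not tested. Of 3 green shoot probes, all rose under ABA and 2 fell under GA, with PSBW of photosystem II at 0.48 ± 0.25 under ABA and at -0.82 ± 0.11 under GA (SD, n = 4 each). The chlorophyll-binding protein gene CAB1R was at 0.12 ± 0.09 under ABA and at -0.10 ± 0.13 under GA. The third, CAB2R, was at 0.18 ± 0.11 under ABA. Under GA it lay on the other side of 0 from PSBW and CAB1R, at 0.14 ± 0.18, and did not pass (limma adjusted p = 0.070). Its GA arrays ran from 0.01 to 0.40. Of 4 shoot meristem homeobox genes, 0 rose and 2 fell under ABA, and 3 rose under GA, with OSH71 at -0.19 ± 0.05 under ABA and at 0.74 ± 0.07 under GA. OSH1 was at -0.30 ± 0.10 under ABA and at 0.27 ± 0.19 under GA. OSH15 was at 0.01 ± 0.12 under ABA, where it did not pass, and at 0.11 ± 0.07 under GA. OSH43 passed under neither hormone (0.04 ± 0.18 under ABA and -0.03 ± 0.09 under GA). Of 3 seed storage genes, none passed in limma under either hormone, the smallest adjusted p being 0.295 for RA14 under ABA (0.10 ± 0.25) and 0.113 for GLUA-3 under GA (-0.08 ± 0.06; SD, n = 4 each). GLUA-3 was at 0.03 ± 0.12 under ABA, and GLUB-5 at -0.01 ± 0.02 under GA.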

How the data were processed

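The authors deposited 1 log ratio per feature and array from 2-colour Agilent oligonucleotide arrays, LOWESS-normalized per the labels. Background handling is not given in the sources. The deposited values were taken as log10, the usual scale of this array software, since no base is stated, and turned into log2 (3.32 log2 units per log10 unit). The base changes folds and counts at 2-fold, but no call at an adjusted p. Were the deposited values log2, MT4A under GA would be 1.27-fold in place of 2.19-fold, and 0 of the 9 probes would reach 2-fold under GA.

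The labels describe treated over untreated, yet as deposited the 2 dye orientations of a hormone ran against each other (r of -0.82 to -0.51 over probes). All arrays were therefore read as Cy5 over Cy3, and those with treated callus in Cy3 were turned. Exact zeros were set to missing, and probes with fewer than 3 values for a hormone were not tested. Probes were named through the platform's gene list and RefSeq of ASM3414082v1. The 17782 probes were fitted in limma 3.58.1 (R 4.3.3) with a mean per hormone and a shared dye term (5 residual and 3.93 prior degrees of freedom), with Benjamini-Hochberg adjustment over all probes. The SD over 4 arrays includes dye bias. The tests and SE leave out the part of it that both hormones share. The fit was tested on simulated data.

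The members and lists were chosen with earlier results of these data known. Every metallothionein probe is named. From each list of metal or enzyme genes the 2 probes with the smallest adjusted p per hormone are named. All tissue markers are named. The 3 nearest named genes are given for MT21A, which also has the largest ABA minus GA difference, and for MT4A. TOM20 and GLB, names also used for other proteins, were left out of the lists after the names were seen.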

Additional observations from a re-analysis of the deposited data

Results flagged for a closer look

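On MT2B probe 20095, ABA array 23 (0.40) lay far from the other 3 ABA arrays, which ran from 0.10 to 0.14. Chance marks about 1 in 20 groups of 4 in this way. On 3 probes the arrays of 1 hormone had opposite signs in the 2 dye orientations, a difference that was not tested within a hormone. For MT2C probe 10554 the mean with treated callus in Cy3 minus that in Cy5 was 1.64 under ABA (0.57 against -1.07) and 1.55 under GA (0.93 against -0.62). For MT2C probe 14703 it was 0.39 under ABA (0.16 against -0.23), and for MT4A it was 0.23 under ABA (0.13 against -0.10). The dye term shared by both hormones passed for these 3 probes (limma adjusted p = 2.68e-05, 0.00184 and 0.0273). It also passed for MT4C (0.10, limma adjusted p = 0.0175), whose arrays were all above 0. The cause of the dye term was not tested.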

How the results depend on the processing

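ABA arrays could not be paired with GA arrays because the hormones share no array number. Each array itself set treated against untreated callus. MT21A and MT1A kept their direction and passed under both hormones in each of the 19 alternatives per comparison other than those that changed the direction or asked for 2-fold, as did MT4A under GA. Leaving out any 1 array, 6 to 7 probes passed under ABA, 7 to 8 under GA and 8 for ABA minus GA. Asking for at least 2-fold left 0, 3 and 3. With no array turned, 1, 0 and 0 passed; MT1A under ABA was then 0.032, and under GA MT2B probe 3502 was -0.0043, MT4A -0.056, MT21A 0.091 and MT2C probe 10554 -0.77. ABA minus GA was then 0.18 for MT1B and -0.083 for MT21A. With the GA arrays turned, GA gave -0.57 for MT1B, -0.46 for MT2B probe 3502, -1.13 for MT4A, 1.09 for MT21A, -0.15 and 0.38 for MT2C probes 10554 and 14703, -1.05 for MT1A and -0.22 for MT4C. ABA minus GA would then be 0.78 for MT1B, 0.32 for MT2B probe 3502, 1.14 for MT4A, -0.41 for MT21A, 0.58 for MT1A and -0.41 for MT2C probe 14703. With probes averaged per gene, 5 of 7 genes passed for ABA minus GA. MT2B was then 0.028 under ABA, 0.21 under GA and -0.19 for the difference, and MT2C was -0.11 under GA and -0.031 for the difference. Among all probes, 7430 passed under ABA, 8715 under GA and 8889 for ABA minus GA. With no array turned these were 578, 6 and 21, and at 2-fold 242, 362 and 820. Under ABA, 25.0 percent of all probes (4443) and 6 of the 9 passed without the dye term. With a dye term per hormone, each hormone on its own arrays or array weights, 50.4, 59.7 and 59.0 percent of all probes passed, beside 7 of the 9 each time. The corresponding GA shares were 35.1, 56.2, 47.1 and 65.0 percent, beside 7, 7, 7 and 8 of the 9. Spot signal and background are not analysed here.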

Other observations

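Genes with 2 probes give a background for the disagreement within MT2B and MT2C. Over the 1709 such genes on the array, both probes passed under GA in the same direction for 346 genes and in opposite directions for 49, and only 1 probe passed for 755. The median gap between the probes of a gene was 0.12 under GA. The gap was 0.49 for MT2B and 0.53 for MT2C, and 6.96 and 6.26 percent of these genes had a larger one. The ABA gaps were 0.33 for MT2B and 0.22 for MT2C, beside a median of 0.10. Larger ABA gaps were found for 9.65 and 20.8 percent of these genes. Under ABA both probes of MT2B passed in opposite directions, as did those of 57 of the 1709 genes.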
